A study of Mus musculus with 18 samples.

Results

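Synaptic vesicles release transmitter through a shared set of proteins, and 44 genes of that set were followed here in mouse forebrain. They were taken from the deposited gene table by symbol, and all 44 were present among 24060 distinct symbols. They comprise calcium sensors, SNARE proteins and the factors that recycle them, complexins, synapsins, vesicle membrane proteins, active zone scaffolds, priming factors, Rab3 proteins with an effector, vesicular glutamate transporters, and 3 further genes of vesicle retrieval and axonal anchoring. The questions were how high each gene stood over tissue and genotype, and which paralogue of each family was used in the embryo and in the young adult.

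At rest, vesicles are held at the active zone by scaffolds such as Bassoon and RIM and are primed by Munc13, which opens syntaxin so that SNARE complexes can form. Complexin clamps and then assists these complexes, and calcium bound to synaptotagmin triggers fusion. Most of the families have several paralogues, which differ between synapse types and in developmental timing.

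The libraries came from C57BL/6 mice that were Chd2+/- (HET) or wild type (WT) for Chd2, a chromatin remodeller. They were prepared with poly(A) selection from P45 hippocampus, from the medial ganglionic eminence (MGE, the ventral source of cortical interneurons) at E13.5 and from cortex at E13.5. There were 3 libraries in each of 6 groups, namely HET and WT hippocampus, HET and WT MGE, and HET and WT cortex, so that hippocampus differed from the embryonic samples in both age and tissue, which cannot be told apart. Neither the construction of the mutant allele nor the sex of the animals is given in the labels. The labels do not say whether replicates were separate animals, so p-values measure the spread between these samples, which may be technical. In cortex, libraries of the same group differed in markers of sex, given below, so they were not all repeats of the same sample.

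Libraries held 26841671 to 38802765 counts. Levels are library-size-scaled counts (CPM, with TMM factors), and because these are bulk samples, fewer cells of a type and less RNA per cell cannot be told apart. Nkx2-1, which specifies the MGE, averaged 918 and 836 CPM in HET and WT MGE and at most 1.03 CPM in any other group, while Emx1, a dorsal forebrain regulator, averaged 154 and 125 CPM in HET and WT cortex and at most 19.7 CPM elsewhere. Camk2a, a kinase of mature excitatory neurons, averaged 5803 and 6219 CPM in HET and WT hippocampus and at most 50.6 CPM elsewhere. Transcripts of Chd2 were at 64.4 to 67.5 CPM in HET hippocampus, against 70.7 to 78.9 CPM in WT hippocampus. They were at 136 to 144 CPM in HET MGE, against 153 to 175 CPM in WT MGE, and at 124 to 125 CPM in HET cortex, against 143 to 153 CPM in WT cortex. The groups did not overlap in any tissue, but the differences (log2 -0.17 ± 0.06, -0.24 ± 0.09 and -0.22 ± 0.08 (SE)) had adjusted p of 0.191, 0.98 and 0.578. Cortex HET 1 and HET 2 stood apart from cortex HET 3, and values with a cortical library left out are given beside the genotype results in cortex and beside calls made in HET cortex alone.

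The start regions of Syn1 and Unc13a are shown because they hold a motif searched for, and those of 2 paralogue pairs because their ratio differed between tissues. Of the 44 members, 35 had a promoter entry in RefSeq, 47 promoters in all (GRCm38.p6, 250 bases before to 50 after the start), and the search covered both strands. The letters TTCAGCACC, which form one part of the element bound by the neuronal gene repressor REST, were found in 2 of the 47 member promoters (4.26%) and in 122 of all 32851 promoters (0.371%). In the synapsin gene Syn1 they lay at position -232 from the start, and the same stretch held TGACGTCA, the cAMP response element, at position -159 (found in 2.13% of member promoters and in 1.79% of all promoters). In the Munc13-1 gene Unc13a they lay on the opposite strand at position 23 after the start. The other part of that element, GGACAG, was found in 11 of the 47 member promoters (23.4%) and in 22.2% of all promoters. In Unc13a it lay on the opposite strand at position 9 after the start, within the stretch printed below, and on the gene strand at position -160. Capitals mark TTCAGCACC and TGACGTCA, which do not overlap each other, and GGACAG is left in lower case.
Syn1, chrX:20921049-20921168, minus strand: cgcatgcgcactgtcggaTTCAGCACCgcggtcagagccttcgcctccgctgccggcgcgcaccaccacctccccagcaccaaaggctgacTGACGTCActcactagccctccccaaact
Unc13a, chr8:71671727-71671756, minus strand: tcaggcgctgtccgcgcccccGGTGCTGAA

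Next are the 120 bases before the start of 2 paralogue pairs that moved apart between embryo and P45, with CG pairs in capitals. The vesicular glutamate transporter genes Slc17a7 and Slc17a6 had 6 CG pairs each in this window. The Munc13 genes Unc13a and Unc13b had 15 and 11. Over the 250 bases before the start, the 35 matched members had a median of 13 CG pairs, taking only the most upstream start of each. All 32851 promoters, not limited to 1 start a gene, had a median of 6.
Slc17a7, chr7:45163801-45163920, plus strand: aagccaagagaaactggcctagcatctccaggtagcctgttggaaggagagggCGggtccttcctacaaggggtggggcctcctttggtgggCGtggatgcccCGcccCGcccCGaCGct
Slc17a6, chr7:51621710-51621829, plus strand: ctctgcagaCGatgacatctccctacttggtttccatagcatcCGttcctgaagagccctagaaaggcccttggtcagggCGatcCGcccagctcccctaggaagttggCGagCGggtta
Unc13a, chr8:71671758-71671877, minus strand: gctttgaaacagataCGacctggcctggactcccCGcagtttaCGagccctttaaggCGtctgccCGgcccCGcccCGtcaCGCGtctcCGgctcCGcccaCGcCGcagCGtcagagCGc
Unc13b, chr4:43058833-43058952, plus strand: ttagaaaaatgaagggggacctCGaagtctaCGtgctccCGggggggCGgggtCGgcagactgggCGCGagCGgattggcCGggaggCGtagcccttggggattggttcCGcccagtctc
A match in these windows describes the letters and does not show a bound site.

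Taken as a sum, the 44 genes held 20531 to 22764 CPM in the hippocampal libraries, against 1026 to 1602 CPM in MGE and 1316 to 1710 CPM in cortex. Per length of the merged exons, Cplx2 (370.7 ± 21.04 CPM per kb, SD, n = 3) and Slc17a7 (366.7 ± 19.7 CPM per kb) stood highest in HET hippocampus, and Slc17a7 (383 ± 32.8 CPM per kb) and Cplx2 (347 ± 16.9 CPM per kb) in WT hippocampus. In WT hippocampus, Syp (280.4 ± 27.1 CPM per kb), Cplx1 (278 ± 55.4) and Rab3a (268 ± 14.6) followed within each other's spread. Rab3a stood highest in WT MGE (24.3 ± 3.18 CPM per kb) and in WT cortex (41.2 ± 3.63 CPM per kb). In WT MGE, Vamp2 (21.1 ± 2.71 CPM per kb) and Cplx2 (19.98 ± 4.11 CPM per kb) were within its spread. The order depends on the length: by the longest coding transcript, a choice made after seeing the data, Snap25 led in HET hippocampus (908 ± 20.9 CPM per kb) and WT hippocampus (811 ± 70.5 CPM per kb). By that length Vamp2 led in HET MGE (36.9 ± 6.30 CPM per kb) and WT MGE (36.5 ± 4.68 CPM per kb), with Rab3a within its spread in both, and Rab3a led in HET and WT cortex. By merged exons, Cplx3 was the lowest in each of the 3 WT groups, at 0.671 ± 0.0234 CPM per kb in hippocampus, 0 in MGE and 0.00340 ± 0.00588 CPM per kb in cortex.

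**Figure D1:**
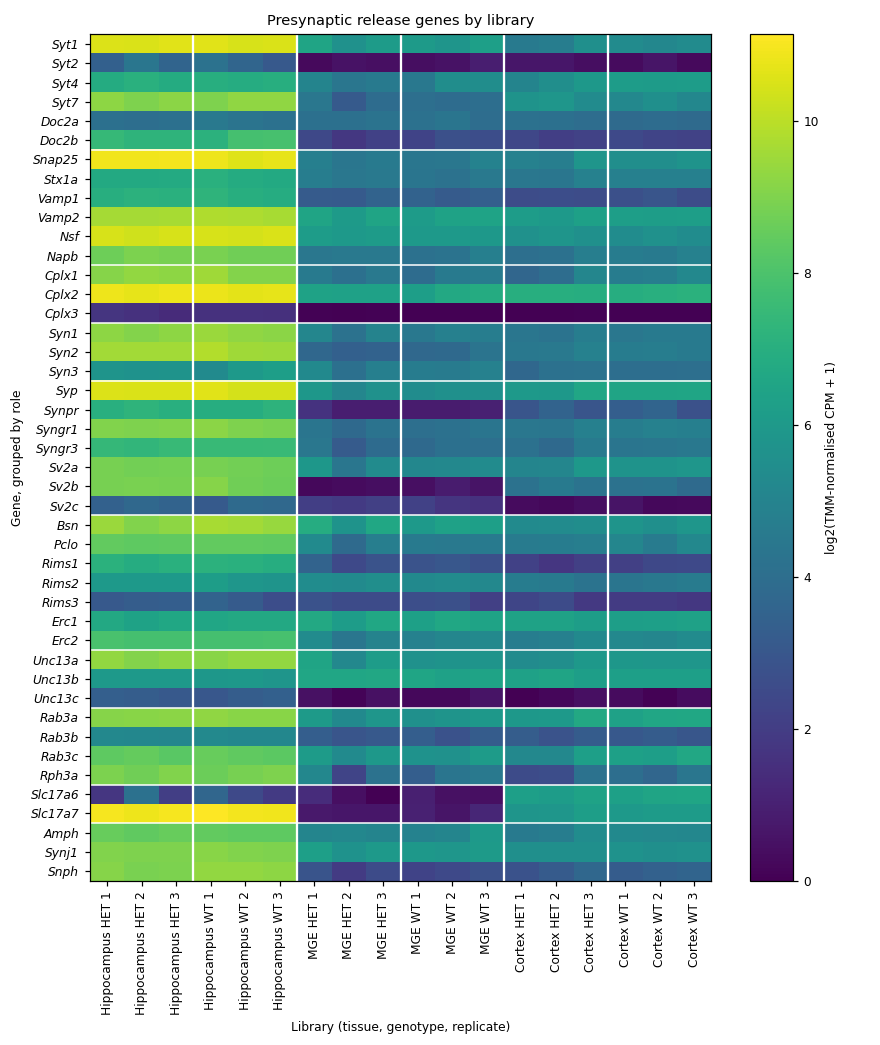
Level of each of the 44 release genes (rows, grouped by role) in each of the 18 libraries (columns), as log2(TMM-normalised CPM + 1) on the colour scale. The hippocampal libraries are at the left, where most rows are brighter than in MGE and cortex; Slc17a6 is bright in cortex only, and MGE HET 2 is darker than the other MGE libraries for several genes such as Rph3a.

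Between embryo and P45, nearly the whole set stood higher in hippocampus. A gene was called between tissues when its edgeR quasi-likelihood adjusted p was under 0.05 and its change at least 2-fold. In hippocampus against cortex, 40 members were higher and 1 lower in HET libraries, and 39 higher and 1 lower in WT libraries. Of all genes tested, 28.9% were called higher and 25.2% lower in the HET comparison, and 28.5% and 24.5% in the WT comparison. In hippocampus against MGE, 38 members were higher in HET libraries and 39 in WT libraries, with none lower, where 30.7% and 30.4% of all genes tested were called higher and 25.1% and 24.8% lower. The median log2 fold change of the members was 3.89 (HET) and 3.92 (WT) against cortex and 3.78 (HET) and 3.87 (WT) against MGE, while the median over all genes was between -0.04 and -0.00. The HET and WT comparisons share no library, and 40 members were called the same way against cortex in both, and 38 against MGE.

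All 44 members passed the filter on low counts in these comparisons, but Cplx3 did so only through its hippocampal libraries, as did Unc13c in the WT comparison with cortex, so that a difference in them was built in. Without members that passed only through hippocampus, 39 were called higher against cortex in HET and 37 in WT libraries. Against MGE these counts were 37 in HET and 38 in WT libraries. Cplx3 is also among the 40 and 38 members called the same way in both genotypes. Cplx3, a complexin of ribbon synapses and some cortical neurons, had 0 counts in every WT MGE library, which puts it at least 21.9-fold higher in WT hippocampus at a floor of 3 counts per library. It had 4 counts over the HET MGE libraries, 2 over the HET cortex libraries and 1 over the WT cortex libraries, and its levels were 1.56 to 2.26 CPM in HET hippocampus and 1.90 to 2.04 CPM in WT hippocampus. With Cplx3 at that bound, the WT median against MGE was the same 3.87.

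Other cell types moved with this difference as well. The summed level of 16 progenitor and cell cycle markers was 283 to 307 CPM over all hippocampal libraries, against 6734 to 8693 CPM in MGE and 5208 to 6669 CPM in cortex. The summed level of 16 neuron markers was 4655 to 5020 CPM over all hippocampal libraries, against 3944 to 5193 CPM in MGE and 2868 to 4504 CPM in cortex. These sums join opposite moves, since 8 of the 16 were called higher in hippocampus in each of the 4 comparisons. Called lower were 4 against cortex in WT libraries and 3 in each of the other comparisons. Sums of 8 oligodendrocyte and 9 astrocyte markers reached 7010 to 11022 CPM and 4562 to 5060 CPM in hippocampus, against at most 84.0 and 649 CPM in the embryonic libraries. Their part in the members' differences was not tested. In HET libraries the comparison of hippocampus with MGE also spans markers of sex, since Xist was high in all hippocampal libraries and near zero in all HET MGE libraries, so that sex and tissue cannot be told apart there. Syn1 and Syp lie on the X chromosome. In WT libraries Xist was high in both tissues. Cortex was mixed in each genotype, with Xist at 1.06, 1292 and 1.23 CPM in HET and 0.963, 1251 and 1290 CPM in WT cortex. Comparisons of hippocampus or MGE with cortex thus span markers of sex in part.

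Among the calcium sensors, the difference ranged from none called to above 5 log2 units. Syt1, the fast sensor of most forebrain synapses, stood at 1511, 1483 and 1578 CPM in HET hippocampus and 1589, 1421 and 1465 CPM in WT hippocampus. It stood at 90.6, 48.6 and 68.8 CPM in HET MGE and 65.6, 54.9 and 76.6 CPM in WT MGE. In cortex it stood at 22.6, 25.7 and 46.2 CPM in HET and 41.1, 34.4 and 40.1 CPM in WT libraries. Every hippocampal library was far above every embryonic one, with log2 fold changes against cortex of 5.60 ± 0.30 (HET) and 5.31 ± 0.09 (WT), and against MGE of 4.44 ± 0.24 (HET) and 4.49 ± 0.13 (WT). Syt7, a sensor of slow and asynchronous release, stood at 501 to 635 CPM in hippocampus and rose against cortex (3.49 ± 0.15 in HET, 3.95 ± 0.14 in WT) and MGE (5.28 ± 0.38 in HET, 5.25 ± 0.12 in WT). Syt2, a fast sensor best known from hindbrain and inhibitory synapses, reached only 7.68 to 19.5 CPM in hippocampus and was under 1 CPM in every embryonic library.

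Syt4, a synaptotagmin whose first C2 domain has an altered calcium-binding site, differed less. It stood at 114, 132 and 114 CPM in HET hippocampus and 126, 117 and 125 CPM in WT hippocampus, against 31.3, 44.4 and 60.9 CPM in HET cortex and 70.2, 68.2 and 70.4 CPM in WT cortex. The WT groups did not overlap, but the difference (0.86 ± 0.06, edgeR adjusted p = 3.26e-07) was under 2-fold, whereas in HET libraries it was 1.40 ± 0.22 and was called. With any 1 HET cortex library left out the HET value was 1.198 to 1.69 and called, and without HET 1 and HET 2 together it was 0.98, under 2-fold. Doc2b, a high-affinity calcium sensor linked to spontaneous release, stood at 175, 153 and 153 CPM in HET hippocampus and 141, 232 and 238 CPM in WT hippocampus, and at 2.55 to 5.64 CPM in every embryonic library. Its log2 fold changes were 5.46 ± 0.14 (HET) and 5.71 ± 0.25 (WT) against cortex and 5.53 ± 0.18 and 5.38 ± 0.26 against MGE. Doc2a, its paralogue, stood at 15.5 to 21.7 CPM in hippocampus and 13.51 to 19.1 CPM in the embryonic libraries, and was not called in any of the 4 comparisons. Exons of Ino80e cover 39.4% of the merged Doc2a exons, the library kit does not mark strand, and Ino80e averaged 16.4 and 19.1 CPM in HET and WT hippocampus, 25.2 and 24.5 CPM in HET and WT MGE, and 24.3 and 21.1 CPM in HET and WT cortex, so Doc2a counts are uncertain.

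The 6 genes of the SNARE group were all higher in hippocampus in the 4 comparisons. Snap25, the plasma membrane SNARE that pairs with syntaxin, stood at 1892, 1899.8 and 1973 CPM in HET hippocampus and 1871, 1573 and 1703 CPM in WT hippocampus, against 29.2, 26.2 and 55.4 CPM in HET cortex and 44.02, 44.3 and 52.0 CPM in WT cortex. In MGE it stood at 27.5, 19.6 and 22.6 CPM in HET and 20.1, 20.1 and 29.8 CPM in WT libraries. Hippocampus was thus above both embryonic tissues without overlap, by 5.70 ± 0.31 (HET) and 5.23 ± 0.11 (WT) log2 units over cortex and 6.35 ± 0.16 and 6.19 ± 0.18 over MGE. Stx1a, the plasma membrane syntaxin, had the smallest change of the group, between 2.12 and 2.60 log2 units. Nsf, the ATPase that takes spent SNARE complexes apart, and its adaptor Napb rose by 4.14 to 5.02 log2 units, and the vesicle SNAREs Vamp1 and Vamp2 by 3.30 to 4.73.

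Of the complexins, Cplx2 stood at 1633 to 1887 CPM in hippocampus, 76.0 to 116 CPM in MGE and 123 to 136 CPM in cortex. Cplx1 stood at 533 to 749 CPM in hippocampus, 14.2 to 24.1 CPM in MGE and 11.9 to 36.3 CPM in cortex. The synapsins tether vesicles to each other and to actin. Syn1 and Syn2 were called higher by 4.41 to 6.15 log2 units in the 4 comparisons. Syn3, the synapsin known from early neuronal outgrowth, stood at 54.1, 50.4 and 51.7 CPM in HET hippocampus and 39.0, 61.8 and 74.7 CPM in WT hippocampus, against 38.0, 16.1 and 27.0 CPM in HET MGE and 25.02, 24.2 and 29.1 CPM in WT MGE. Neither pair of groups overlapped; the change was 0.93 ± 0.30 in HET libraries, under 2-fold, and 1.15 ± 0.22 in WT libraries, which was called. Exons of Timp3 cover 14.1% of the merged Syn3 exons, and Timp3 itself averaged 63.9 and 81.9 CPM in HET and WT hippocampus, against 11.3 and 14.5 CPM in HET and WT MGE and 32.8 and 27.7 CPM in HET and WT cortex. Other genes also cover over 10% of the merged exons of Syp (16.8%, Gm14703), Syt4 (14.5%, Gm26658) and Erc1 (11.8%, Gm44317). Levels of those 3 overlapping genes are not given here.

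All 7 vesicle membrane genes were higher in hippocampus in each comparison. Syp, encoding synaptophysin, an abundant vesicle membrane protein, stood at 1369 to 1623 CPM in hippocampus, 33.7 to 58.7 CPM in MGE and 60.02 to 96.3 CPM in cortex. Its relative Synpr, prominent at mossy fibre terminals, stood at 121 to 151 CPM in hippocampus, 0.807 to 2.095 CPM in MGE and 5.74 to 11.2 CPM in cortex. It rose by 6.71 ± 0.31 (HET) and 7.17 ± 0.13 (WT) log2 units against MGE and by 4.10 ± 0.20 and 3.93 ± 0.22 against cortex. Sv2a, a vesicle glycoprotein and the target of levetiracetam, had one of the smaller changes of the group (3.05 to 3.54 log2 units). Sv2b stood at 469, 481 and 460.4 CPM in HET hippocampus and 564, 428 and 403 CPM in WT hippocampus, against 0.163, 0.252 and 0.351 CPM in HET MGE and 0.353, 0.787 and 0.485 CPM in WT MGE. Each hippocampal library was far above each MGE library, by 10.81 ± 0.18 (HET) and 9.76 ± 0.25 (WT) log2 units, and against cortex the change was 4.63 ± 0.13 and 4.86 ± 0.18. Sv2c stood at 8.005 to 13.47 CPM in hippocampus and differed more from cortex (5.42 ± 0.27 in HET, 5.26 ± 0.35 in WT) than from MGE (1.84 ± 0.15 and 2.09 ± 0.26).

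The active zone scaffolds were divided. Bsn and Pclo, the giant scaffolds Bassoon and Piccolo, Rims1 and Erc2 were higher in hippocampus in all 4 comparisons, by 2.72 to 5.43 log2 units. Rims2 was called against cortex (1.52 ± 0.14 in HET, 1.55 ± 0.13 in WT) and differed by under 2-fold from MGE (0.57 ± 0.08 and 0.66 ± 0.12). Rims3, a short RIM, did likewise, at 1.16 ± 0.24 and 1.59 ± 0.26 against cortex and 0.69 ± 0.16 and 0.74 ± 0.28 against MGE. Erc1, the broadly expressed ELKS protein, was not called in any comparison and stood at 85.3 to 106 CPM in hippocampus, 69.9 to 104 CPM in MGE and 72.2 to 84.4 CPM in cortex.

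The Munc13 genes went in different directions. Unc13a stood at 656, 540.1 and 599.8 CPM in HET hippocampus and 571, 655 and 647 CPM in WT hippocampus, against 41.1, 43.97 and 61.0 CPM in HET cortex and 59.5, 56.8 and 56.3 CPM in WT cortex. Unc13b stood at 65.3, 62.2 and 64.7 CPM in HET hippocampus and 58.9, 61.5 and 55.8 CPM in WT hippocampus, against 82.8, 89.2 and 74.3 CPM in HET cortex and 77.4, 78.2 and 78.5 CPM in WT cortex. Every hippocampal library was above the cortical ones for Unc13a and below them for Unc13b. The log2 fold change of Unc13b was -0.36 ± 0.10 (HET, adjusted p = 0.0099) and -0.37 ± 0.07 (WT, adjusted p = 0.000384) against cortex, and -0.63 ± 0.07 and -0.59 ± 0.08 against MGE, all under 2-fold, whereas Unc13a rose by 3.18 to 3.62 log2 units. Unc13c, encoding the Munc13 typical of cerebellum, stood at 7.14 to 9.71 CPM in hippocampus and under 0.5 CPM in the embryonic libraries, with log2 fold changes of 5.60 ± 0.58 (HET) and 5.55 ± 0.41 (WT) against cortex and 4.801 ± 0.36 and 4.90 ± 0.33 against MGE.

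Rab3a, Rab3b and Rab3c, the GTPases carried on vesicles, were called higher in the 4 comparisons, by 2.07 to 3.45 log2 units. Rph3a, which encodes the Rab3 effector rabphilin, rose by 4.65 to 5.69 log2 units and stood at 3.89 to 35.0 CPM in HET MGE. Amph and Synj1, which act in clathrin-mediated retrieval of vesicles, rose by 2.98 to 3.60 log2 units. Snph, which encodes syntaphilin, the anchor that holds mitochondria in axons, stood at 563, 477 and 497 CPM in HET hippocampus and 644, 638 and 609.8 CPM in WT hippocampus, and at 2.88 to 12.3 CPM in every embryonic library. It had the largest fitted rise against cortex in both genotypes among members with counts in all embryonic libraries (5.86 ± 0.28 in HET, 6.04 ± 0.11 in WT), and it rose by 6.74 ± 0.31 (HET) and 7.05 ± 0.15 (WT) against MGE.

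**Figure D2:**
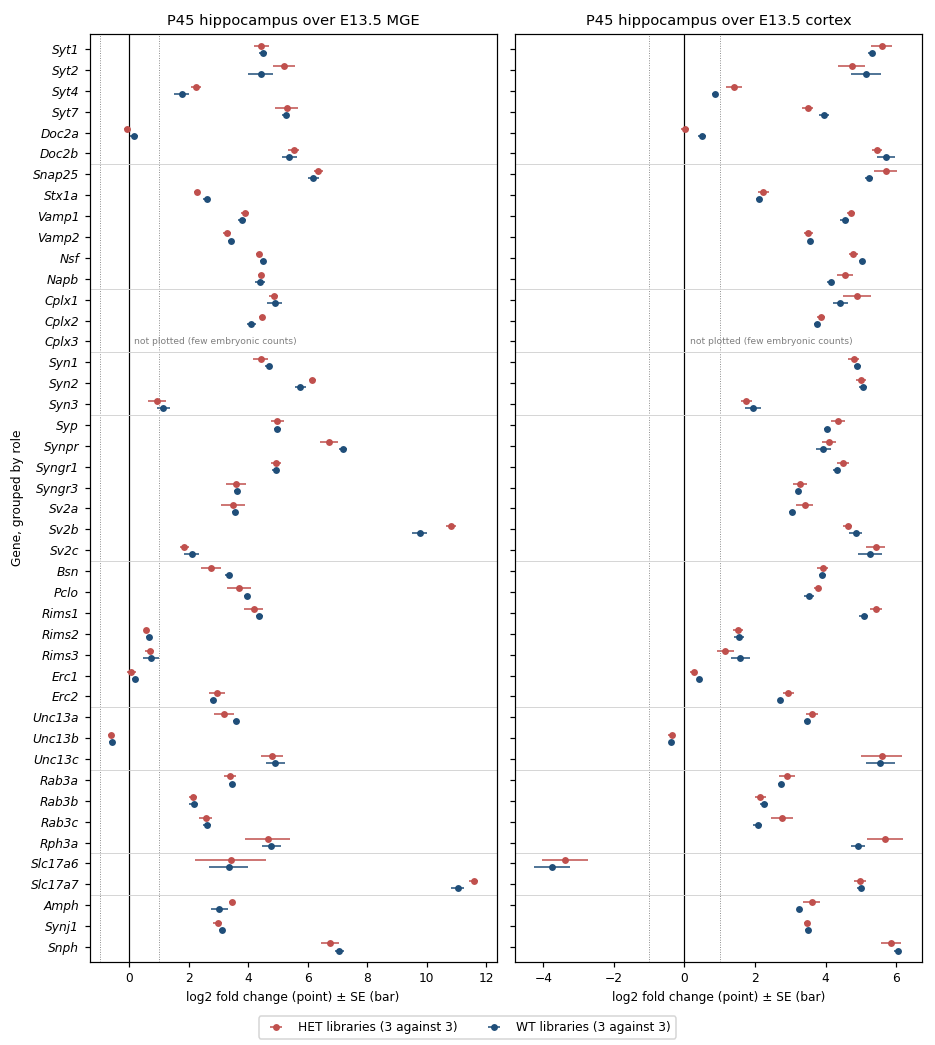
Log2 fold change (points) and standard error (bars) of each release gene in P45 hippocampus over E13.5 MGE (left) and over E13.5 cortex (right), for HET and WT libraries separately, with dotted lines at a 2-fold change. Most points lie between 2 and 6; Doc2a and Erc1 lie near 0, Unc13b just below it, and Slc17a6 is below 0 against cortex and above 0 against MGE. Cplx3 is not plotted because it had 4 counts or fewer in each embryonic group.

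The glutamate transporters that fill vesicles gave the sharpest contrast. Slc17a7 (VGLUT1) stood at 2031, 1855 and 2045 CPM in HET hippocampus and 2265, 1999 and 1931 CPM in WT hippocampus. It stood at 0.707, 0.588 and 0.620 CPM in HET MGE and 1.06, 0.557 and 1.26 CPM in WT MGE, and at 55.4, 57.6 and 75.5 CPM in HET cortex and 62.0, 68.7 and 68.7 CPM in WT cortex. The tissues were in the same order in both genotypes without overlap, with hippocampus 11.57 ± 0.15 (HET) and 11.04 ± 0.21 (WT) log2 units above MGE and 4.98 ± 0.16 and 4.99 ± 0.10 above cortex. Slc17a6 (VGLUT2) stood at 2.41, 16.9 and 3.23 CPM in HET hippocampus and 11.9, 4.50 and 2.76 CPM in WT hippocampus, where 1 library of each genotype was high. It stood at 1.66, 0.392 and 0.0270 CPM in HET MGE and 0.984, 0.426 and 0.388 CPM in WT MGE, and at 78.5, 71.5 and 84.5 CPM in HET cortex and 79.7, 90.7 and 92.7 CPM in WT cortex. It was the only member called lower in hippocampus than in cortex (-3.38 ± 0.65 in HET, adjusted p = 0.00142; -3.75 ± 0.52 in WT, adjusted p = 0.00107), and it was higher in hippocampus than in MGE (3.41 ± 1.19 and 3.34 ± 0.66).

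A list of 78 other presynaptic genes, of which 74 or 75 could be tested, was set beside the members. Against cortex, 54 of 74 were called higher in both HET and WT hippocampus, and 3 and 4 lower. Against MGE, 52 of 75 were higher and 4 lower in HET libraries, and 51 and 4 in WT libraries. The largest rise against cortex was that of Syt13, a synaptotagmin without calcium binding, at 281.8 and 304 CPM in HET and WT hippocampus and 1.94 and 1.69 CPM in HET and WT cortex. Sncb, encoding beta-synuclein, led against MGE, at 239.9 and 274 CPM in HET and WT hippocampus and 1.43 and 1.68 CPM in HET and WT MGE. Slc18a2, the vesicular monoamine transporter, fell to 5.67 and 3.99 CPM in HET and WT hippocampus, against 106 and 114 CPM in HET and WT MGE. Syt9 was lower in hippocampus in all 4 comparisons, at 2.46 and 2.84 CPM in HET and WT hippocampus, against 14.5 and 13.4 CPM in HET and WT MGE and 12.5 and 9.18 CPM in HET and WT cortex. Synj2, Syt10, Rab3d and Vamp3 were the others named by the same rule, with log2 fold changes against cortex of 6.70 (Synj2, WT), 6.54 (Syt10, HET), -1.15 (Rab3d, WT) and -1.29 (Vamp3, HET).

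Paralogue usage was measured within each library as the log2 ratio of the counts of 2 genes of a family, a value that library scaling does not touch. The 22 ratios were compared over 6 libraries a tissue, with an exact two-sided permutation test that moved tissue labels within genotype (400 arrangements, smallest possible p 0.005) and Benjamini-Hochberg adjustment over the 66 tests. The ratio differed between hippocampus and cortex in 20 of 22 pairs and between hippocampus and MGE in 21 of 22, and in 17 and 19 of them the libraries of the 2 tissues did not overlap. Ratios of other gene pairs were not taken, so these counts have no background share and are not a result particular to paralogues. Single genes often differed too: 28.5% of all genes tested were called higher and 24.5% lower in WT hippocampus against WT cortex. Both counts of differing pairs include Cplx3 to Cplx1 (1.58 against cortex and 1.42 against MGE), a ratio set by the pseudocount because Cplx3 was at or near 0 counts in the embryo, and its sign is the opposite with a pseudocount of 5 (-1.10 and -1.17). The Unc13c to Unc13a ratio rests on few Unc13c counts in cortex, 17 over the HET and 17 over the WT libraries, and its SD there was 1.64 log2 units. Shares of a family are given below from CPM per kb of merged exons, as means over 3 libraries. A family means only its members in the set of 44, so a share is not of all paralogues. Syt11, Rab3d, Syngr2, Rims4, Vamp3, Unc13d and Slc17a8 are among those left out.

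The RIM family was led by Rims1 in hippocampus and by Rims2 in the embryo. Rims1 made up 71.2% ± 2.21 (SD, n = 3) of RIM transcripts in HET and 72.5% ± 2.12 in WT hippocampus, against 16.6% ± 5.78 in HET and 16.8% ± 0.590 in WT MGE, and 13.9% ± 3.71 in HET and 18.5% ± 1.54 in WT cortex. Rims2 held 24.5% and 23.5% in HET and WT hippocampus and 69.8 to 71.8% in the embryonic groups. The Rims2 to Rims1 log2 ratio was -1.09 ± 0.13 (SD, n = 6) in hippocampus, 2.62 ± 0.39 in MGE and 2.64 ± 0.37 in cortex. It differed by -3.71 in hippocampus minus MGE and by -3.73 in hippocampus minus cortex (exact permutation p = 0.005 each, adjusted 0.0075), and by -0.02 in MGE minus cortex (exact permutation, adjusted p = 0.945).

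The ELKS and Doc2 families had another leading gene in hippocampus too. Erc2, the brain-specific ELKS protein CAST, held 80.4% ± 1.13 and 79.4% ± 0.964 of the pair in HET and WT hippocampus, against 35.2% ± 3.69 and 38.4% ± 3.11 in HET and WT MGE and 38.7% ± 7.10 and 43.8% ± 1.54 in HET and WT cortex. The Erc2 to Erc1 ratio differed by 2.51 log2 units between hippocampus and cortex and 2.78 between hippocampus and MGE (exact permutation, adjusted p = 0.0075 each). Doc2b held 86.4% ± 0.762 and 86.5% ± 5.12 of its pair in HET and WT hippocampus, against 11.5% ± 2.56 and 15.6% ± 3.07 in HET and WT MGE and 12.8% ± 1.49 and 15.6% ± 1.58 in HET and WT cortex. Its ratio to Doc2a differed by 5.31 log2 units from cortex and 5.41 from MGE (exact permutation, adjusted p = 0.0075 each), with the overlap of Doc2a and Ino80e applying here as well.

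Among the synaptotagmins of the set (Syt1, Syt2, Syt4 and Syt7), Syt1 led in hippocampus and Syt4 in cortex. Syt11, which was left out, stood above Syt4 in cortex in CPM (mean log2 CPM 8.60 over the cortex libraries). Syt4 held 10.6% ± 1.21 in HET and 10.8% ± 0.322 in WT hippocampus, against 51.6% ± 6.73 in HET and 64.4% ± 1.29 in WT cortex. Syt1 held 62.8% ± 0.824 and 61.5% ± 3.22 in HET and WT hippocampus against 16.6% ± 3.67 and 16.7% ± 1.58 in HET and WT cortex. The Syt4 to Syt1 ratio in hippocampus minus cortex was -4.34 and in hippocampus minus MGE -2.44 (exact permutation, adjusted p = 0.0075 each). MGE stood between the other tissues, and in WT MGE the leader was Syt4 by merged exons and Syt1 by the longest coding transcript. The synaptogyrins are vesicle membrane proteins of unsettled function. Of Syngr1 and Syngr3, Syngr1 led in hippocampus (56.6% in HET and 55.3% in WT) and Syngr3 in the embryonic groups (63.1 to 66.8%). Syngr2 was not in the share and had a mean log2 CPM of 3.30 over hippocampal, 3.45 over MGE and 3.84 over cortex libraries. The Syngr3 to Syngr1 ratio in hippocampus minus cortex was -1.15 and in hippocampus minus MGE -1.30 (exact permutation, adjusted p = 0.0075 each).

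In hippocampus the Munc13 and VGLUT families consisted nearly of 1 gene each. Unc13a held 92.6% ± 0.523 and 93.3% ± 0.255 in HET and WT hippocampus, against 52.6% ± 11.3 and 51.3% ± 2.47 in HET and WT MGE and 51.2% ± 7.08 and 56.9% ± 0.868 in HET and WT cortex. The Unc13b to Unc13a ratio in hippocampus minus cortex was -3.92 and in hippocampus minus MGE -4.04 (exact permutation, adjusted p = 0.0075 each). Which of the pair led in the embryo depended on the length used, since Unc13b held 53.9% in WT MGE by the longest coding transcript. Slc17a7 held 99.6% ± 0.440 and 99.7% ± 0.199 of the VGLUT pair in HET and WT hippocampus, against 44.4% ± 2.91 and 43.2% ± 0.605 in HET and WT cortex, and its ratio to Slc17a6 differed by 8.96 log2 units (exact permutation, adjusted p = 0.0075). By the longest coding transcript Slc17a7 held 53.1% and 51.8% in HET and WT cortex, so that the leader in cortex was not settled either.

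The other families kept their leading gene under both lengths, apart from the synapsins. Over the 6 groups, Vamp2 held 94.2 to 97.4% of the Vamp1 and Vamp2 pair, and Syp 93.9 to 98.9% of its pair. Rab3a held 77.7 to 87.3% of Rab3a, Rab3b and Rab3c together, and Sv2a 62.6 to 95.9% of the SV2 genes. Rab3d was not in the Rab3 share and stood at 51.3 CPM in WT cortex and 22.6 CPM in WT hippocampus. Within the SV2 genes, Sv2b held 36.5% and 36.6% in HET and WT hippocampus, against 0.424% and 0.781% in HET and WT MGE and 21.1% and 14.5% in HET and WT cortex. Syn3 held 1.46% ± 0.0403 and 1.56% ± 0.603 of the synapsins in HET and WT hippocampus, against 18.05% ± 2.34 and 18.2% ± 1.97 in HET and WT MGE and 11.5% ± 2.05 and 11.1% ± 0.387 in HET and WT cortex. Its ratio to Syn1 in hippocampus minus cortex was -3.02 and in hippocampus minus MGE -3.51 (exact permutation, adjusted p = 0.0075 each). Syn1 led in every group by merged exons, and Syn2 led in hippocampus by the longest coding transcript.

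**Figure D3:**
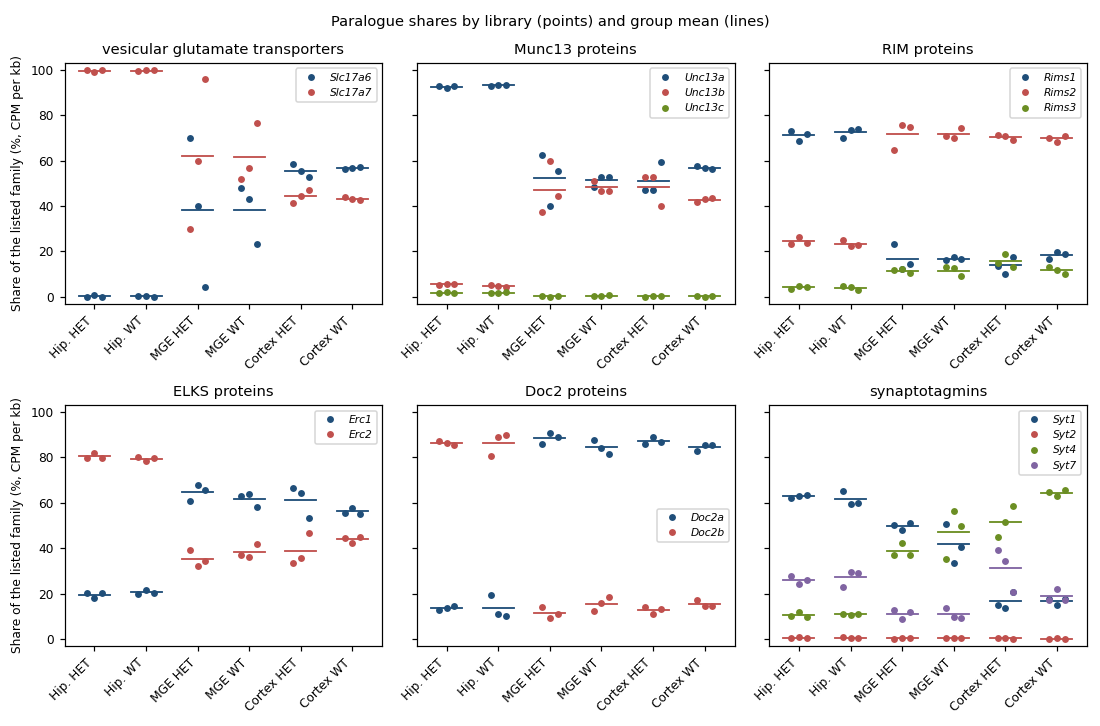
Share of each gene in 6 families, with a point for each library and a line for the mean of each of the 6 groups. Shares are per cent of the CPM per kb of merged exons, summed over the family's members in the set only. In hippocampus Slc17a7, Unc13a, Rims1, Erc2, Doc2b and Syt1 hold the largest share, and in the embryonic groups Rims2, Erc1 and Doc2a lead their families; HET and WT groups lie close together in hippocampus.

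Between the embryonic tissues the set as a whole did not stand apart, and a few genes did. In MGE against cortex, 4 members were higher and 6 lower in HET libraries, and 1 higher and 7 lower in WT libraries. Of all genes tested, 5.31% were called higher and 8.93% lower in HET libraries, and 5.5% and 9.63% in WT libraries. Called the same way in both sets were Sv2c, higher, and Slc17a6, Slc17a7, Sv2b, Synpr and Syt7, lower. Sv2c, the SV2 protein of basal ganglia neurons, stood at 3.18, 2.77 and 3.26 CPM in HET MGE and 3.51, 2.29 and 2.04 CPM in WT MGE, against 0.256, 0.169 and 0.334 CPM in HET cortex and 0.481, 0.191 and 0.215 CPM in WT cortex. All MGE libraries were above all cortical ones, by 3.57 ± 0.34 (HET) and 3.11 ± 0.44 (WT) log2 units.

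Both glutamate transporter genes were near their floor in MGE, with log2 fold changes against cortex of -6.80 ± 0.69 (HET) and -7.12 ± 0.23 (WT) for Slc17a6 and -6.61 ± 0.21 and -6.10 ± 0.19 for Slc17a7. Sv2b was lower by -6.20 ± 0.28 and -4.94 ± 0.27, Synpr by -2.63 ± 0.39 and -3.28 ± 0.29, and Syt7 by -1.80 ± 0.31 and -1.35 ± 0.12. Syt1, Bsn and Rims1 were called higher in HET libraries (1.14 ± 0.31, 1.15 ± 0.27 and 1.24 ± 0.34) and were higher by under 2-fold in WT libraries (0.77 ± 0.13, 0.52 ± 0.11 and 0.65 ± 0.20). With each HET cortex library left out in turn, Syt1 ranged over 0.95 to 1.54 and was called only without HET 3, and Bsn ranged over 1.12 to 1.197 and lost its call without HET 3. Rims1 ranged over 1.11 to 1.33 and was not called in any of the 3. Syn2 stood at 12.1, 9.82 and 10.2 CPM in HET MGE, against 21.2, 22.0 and 28.5 CPM in HET cortex. It was called lower in HET libraries (-1.15 ± 0.17), also with each HET cortex library left out, and was lower by under 2-fold in WT libraries (-0.73 ± 0.15). Whether HET and WT differed in these changes was tested by the interaction of MGE minus cortex, in which no member passed. Markers of sex went with genotype in MGE, so that sex and genotype cannot be told apart in that contrast. Snap25 and Snph were called lower in WT libraries (-1.003 ± 0.16 and -1.06 ± 0.20), and their HET values were -0.67 ± 0.29 and -0.90 ± 0.35. Of the 22 paralogue ratios, 11 differed between MGE and cortex, among them Sv2c to Sv2a (3.71) and Sv2b to Sv2a (-5.22), each with an exact permutation adjusted p of 0.0075. From the other presynaptic genes, Slc32a1, the vesicular GABA transporter, stood at 111 and 102.7 CPM in HET and WT MGE and 3.24 and 5.44 CPM in HET and WT cortex. Slc18a2 stood at 106 and 114 CPM in HET and WT MGE and 2.84 and 2.31 CPM in HET and WT cortex, while Sh3gl2 and Slc6a17, an endophilin and a vesicular amino acid transporter, were lower in MGE, by -2.70 and -2.73 (HET) and -2.997 and -2.77 (WT) log2 units.

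For genotype, no member passed the adjusted threshold in any tissue with edgeR, over 44 members tested in hippocampus, 43 in MGE and 41 in cortex. Of all genes tested, 1.07% were called in hippocampus, 0.0479% in MGE and 0% in cortex. The 7 genes called in MGE included 4 Y-linked genes and Xist, markers of sex that went with genotype there. At an unadjusted p under 0.05 there were 4 members in hippocampus, 1 in MGE and 4 in cortex, where all genes gave 15.6%, 4.51% and 7.89%. Groups did not overlap for 2 members higher and 4 lower in HET hippocampus (9.17% and 11.7% of all genes), 1 and 2 in MGE (4.23% and 5.47%) and 1 and 2 in cortex (5.25% and 5.88%). Of the 78 other presynaptic genes, 74 were tested in hippocampus, 75 in MGE and 73 in cortex, and none was called. The median log2 fold change of the members was -0.03 in hippocampus, 0.02 in MGE and -0.15 in cortex, while that of all genes was 0 to 0.01.

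In hippocampus, Snph had the lowest p, at 563, 477 and 497 CPM in HET and 644, 638 and 609.8 CPM in WT libraries. The groups did not overlap, and the difference was -0.29 ± 0.07 log2 units (edgeR adjusted p = 0.0676). Snph was called by DESeq2 (adjusted p = 0.0053), and by edgeR without the filter on low counts (0.0297) and without HET 1 (0.0333). The other alternatives, among them RLE scaling, limma-voom and the replicate block, did not call it. Bsn stood at 714, 526 and 616 CPM in HET and 823, 780.2 and 686 CPM in WT libraries (-0.30 ± 0.12, adjusted p = 0.272), with 1 HET library inside the WT range. Snap25 stood at 1892, 1899.8 and 1973 CPM in HET and 1871, 1573 and 1703 CPM in WT libraries, with no overlap (0.17 ± 0.07, adjusted p = 0.273). Doc2a had -0.23 ± 0.10 (adjusted p = 0.303), beside the lower Ino80e level in HET given above, and Unc13b 0.13 ± 0.06 (adjusted p = 0.34). Without WT 1, Snap25 was called higher (0.24), and Doc2b (-0.54) and Syn3 (-0.38) were called lower.

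In MGE the 5 members with the lowest p were Syn2 (-0.47 ± 0.17), Sv2b (-1.06 ± 0.49), Doc2b (-0.50 ± 0.24), Unc13b (0.17 ± 0.09) and Cplx2 (-0.25 ± 0.14), each with an adjusted p of 0.98. Syn2 stood at 12.1, 9.82 and 10.2 CPM in HET and 12.7, 13.2 and 18.5 CPM in WT MGE, without overlap. Sv2b, under 1 CPM in all 6 libraries, did not overlap either. Genotype went with markers of sex in MGE, where the summed level of 4 Y-linked genes lay between 211 and 259 CPM in HET libraries and was at most 0.0984 CPM in WT libraries. Xist, which silences an X chromosome in females, was at most 1.08 CPM in HET libraries and at least 1736 CPM in WT libraries. Sex and genotype cannot be told apart there. HET 2 had the lowest member sum of the MGE libraries (1026 CPM), the lowest neuron marker sum (3944 CPM) and the highest progenitor sum (8693 CPM), and their part was not tested. Without it, 8 of 43 members were below zero in place of 16, where all genes had 49.02% and 47.9% below zero. In hippocampus Xist was at 523 to 682 CPM in all 6 libraries, and in cortex both genotypes held libraries of both kinds.

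In cortex, 31 of 41 members were below zero (75.6%, against 47.7% of all genes tested), and the 5 with the lowest p were Bsn (-0.33 ± 0.11), Syt4 (-0.60 ± 0.21), Rab3c (-0.77 ± 0.30), Syt7 (0.38 ± 0.16) and Doc2a (0.22 ± 0.12), each with an adjusted p of 0.578. Doc2a was higher in HET beside a higher Ino80e (24.3 against 21.1 CPM), whose part was not tested. Rab3c stood at 35.5, 35.6 and 77.2 CPM in HET and 79.0, 74.8 and 101 CPM in WT cortex, so that HET 3 lay inside the WT range and the other two lay well below it. Syt4 stood at 31.3, 44.4 and 60.9 CPM in HET and 70.2, 68.2 and 70.4 CPM in WT cortex, and Bsn at 39.2, 40.6 and 43.5 CPM in HET and 54.2, 45.2 and 56.6 CPM in WT cortex, both without overlap. Rph3a stood at 4.89, 5.28 and 17.4 CPM in HET and 15.5, 11.7 and 19.6 CPM in WT cortex, and Cplx1 at 11.9, 14.8 and 33.8 CPM in HET and 24.9, 26.4 and 36.3 CPM in WT cortex. In Rab3c, Rph3a and Cplx1, the last 2 named after their values were seen, HET 3 lay inside the WT range and HET 1 and HET 2 below it, whereas in Syt4 and Bsn HET 3 was the highest HET library but below every WT library.

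The median deviation of the 41 tested members from the WT mean was -0.26 and -0.29 log2 units in HET 1 and HET 2 and 0.08 in HET 3. Without HET 3, 20 of 41 members were called, 2 higher (Syt7 and Rims3) and 18 lower, beside 4598 of 14961 genes. The lower ones included Rph3a (-1.60), Rab3c (-1.24), Cplx1 (-1.11) and Syt4 (-0.86). Without HET 1 and HET 2, 0 of 43 were called and 16 were below zero (51.4% of all genes were), but this leaves 1 HET library, which is assumed to vary like the WT libraries. Markers of cell types moved in the same libraries: the neuron marker sum was 2930 and 2868 CPM in HET 1 and HET 2 and 4379 CPM in HET 3, against 3905 to 4504 CPM in WT, and the progenitor sum was 6669 and 6481 CPM in HET 1 and HET 2 and 5223 CPM in HET 3, against 5208 to 5673 CPM in WT. The red blood cell marker sum was 928 and 1148 CPM in HET 1 and HET 2 and 375 CPM in HET 3, against 293 to 447 CPM in WT. Their part in the members' levels was not tested.

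**Figure D4:**
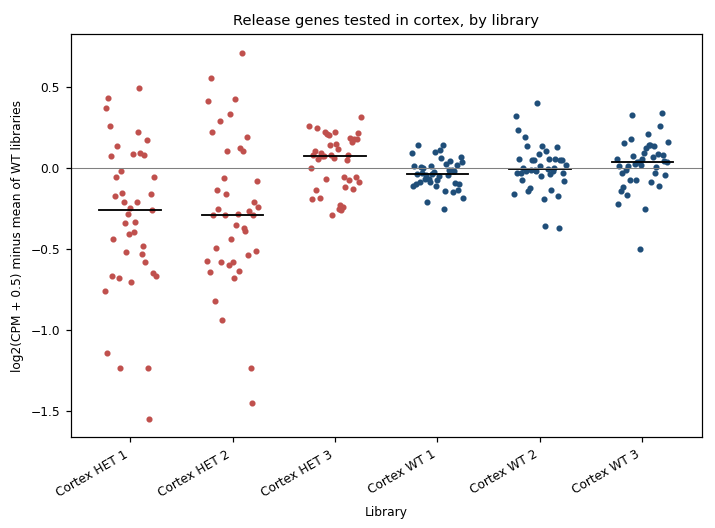
Deviation of each of the 41 release genes tested in cortex from its mean over the WT libraries, as log2(CPM + 0.5), with a point for each gene and a line for the median, in 3 HET and 3 WT cortex libraries. HET 1 and HET 2 have medians of -0.26 and -0.29 and reach below -1, while HET 3 (0.08) lies with the WT libraries.

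**Figure D5:**
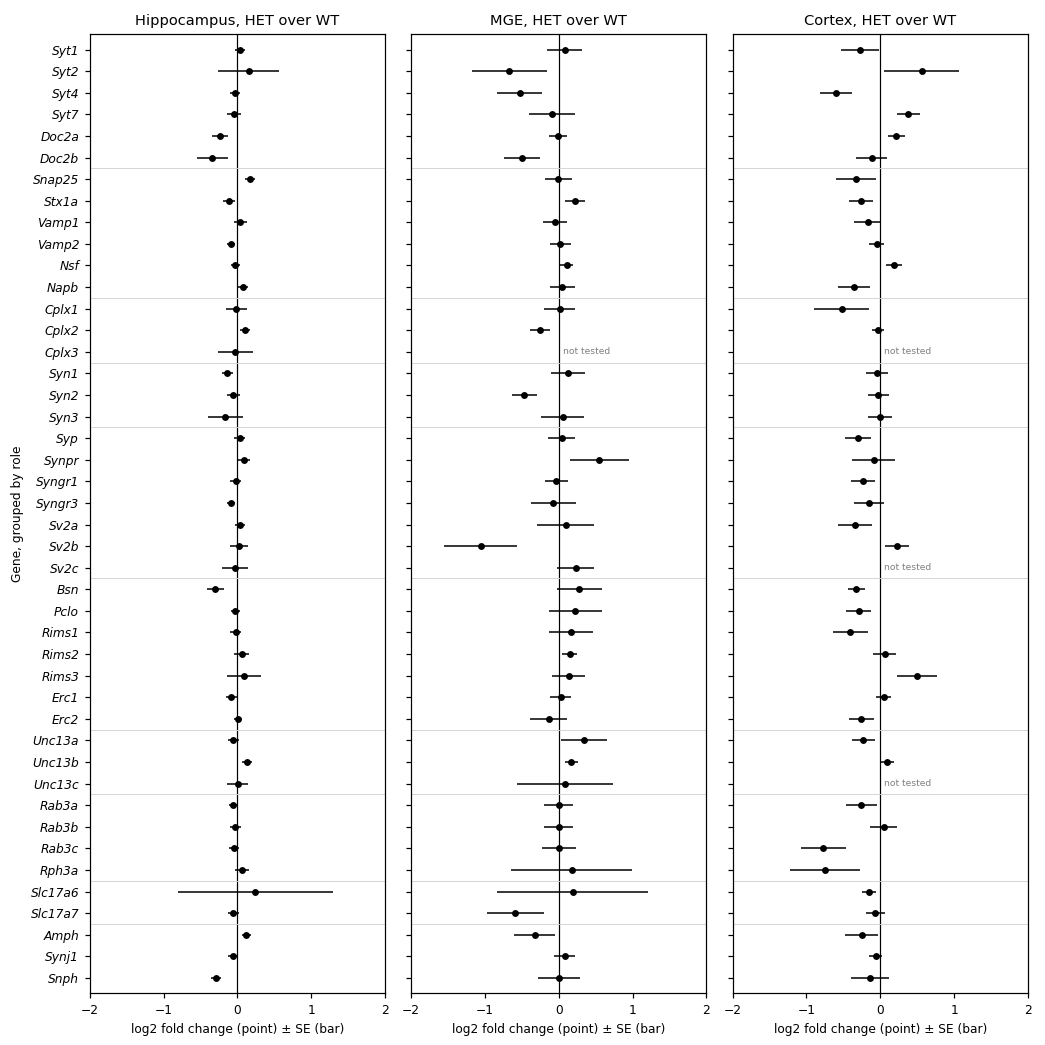
Log2 fold change (points) and standard error (bars) of HET over WT for each release gene in hippocampus, MGE and cortex. Points lie between -0.34 (Doc2b) and 0.24 (Slc17a6) in hippocampus, error bars are wider in MGE and cortex, and most cortex points lie left of 0; genes too low to test are marked.

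The genotype effect was also compared between tissues in one fit of all 18 libraries. Since markers of sex went with genotype in MGE, sex and genotype cannot be told apart in the contrasts with MGE. No member passed in any of the 3 interaction contrasts, where 0.0124% of all genes were called for hippocampus minus cortex, 0.0062% for hippocampus minus MGE and 0% for MGE minus cortex. At an unadjusted p under 0.05 there were 1, 3 and 3 members, beside 12.8%, 7.36% and 7.01% of all genes. The lowest adjusted p was 0.333, that of Doc2a in hippocampus minus cortex (-0.44 ± 0.16). Without cortex HET 3, 4 members passed in hippocampus minus cortex, beside 2791 genes, and 4 in MGE minus cortex, beside 1044 genes.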

How the data were processed

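Poly(A)-selected RNA libraries were made with the NEBNext Ultra kit from Trizol-extracted total RNA, per the labels' protocols. The deposited values are counts of reads per gene in each of 18 libraries, not normalised by the authors. Per the submitters' processing notes, the build was mm10 and the tools included TopHat2 2.1.1, Trimmomatic, FastQC, DESeq2 and SAMtools. How reads were counted, with which annotation and strand setting, is not given in the sources used here. Since the kit does not mark strand, reads of overlapping genes cannot be told apart. The table had 24062 lines with 24060 distinct symbols.

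Groups were taken from the labels. Genes were filtered with filterByExpr (minimum count 10, minimum total 15), scaled by TMM and tested with edgeR 4.0.16 (R 4.3.3) by its robust quasi-likelihood F test, in a fit of the 2 groups compared, or of all 18 libraries for the interactions. A call required a Benjamini-Hochberg adjusted p under 0.05, and at least a 2-fold change between tissues. SE is the absolute log2 fold change divided by the square root of F. Paralogue ratios used a pseudocount of 0.5 counts and Python 3.11.15. Lengths were exon unions of GENCODE M21 (GRCm38), and sequences are those of RefSeq GRCm38.p6. Replicates within a group differed by 5.79 to 100.5 times the counting noise over genes with at least 20 counts, so none was a duplicate. The scripts were tested on simulated data.

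Values are given for the 5 members with the lowest p in each genotype comparison, for the 6 with the largest rise and the 6 with the largest fall that passed in each tissue comparison, and for the paralogue pairs described. Of the other presynaptic genes, the 2 largest called changes in each direction (mean log2 CPM of at least 1) were named. The members and lists were chosen with earlier results of these data known. Alternatives were RLE and upper-quartile scaling, DESeq2 1.42.0, limma-voom (limma 3.58.1), no filter, 1 fit of all libraries, a replicate block, each library left out, and a pseudocount of 5; cortex HET 1 and HET 2 were also left out together; that setting between tissues, and levels and shares by the longest coding transcript, were added after seeing the data. Replicate numbers were not used as pairs.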

Additional observations from a re-analysis of the deposited data

How the results depend on the processing

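Genotype counts of members rested on single libraries in cortex. Leaving out each library in turn gave 0 to 2 members higher and 0 to 18 lower in cortex, where the upper values came without HET 3, 0 to 1 higher and 0 to 2 lower in hippocampus, and, in the interactions, 0 to 4 higher in MGE minus cortex and 0 to 4 in hippocampus minus cortex. In hippocampus, 1 member (Snph) was lower with no filter and 1 with DESeq2. MGE against cortex in HET libraries gave 1 to 5 members higher. Without cortex HET 1 and HET 2, hippocampus against cortex in HET libraries gave 0 lower. Calls over all genes in hippocampus numbered 164, with 291 without a filter, 445 with DESeq2, 11 in 1 fit of 18 libraries and 23 to 292 with a library left out. In cortex they numbered 0, 11 with DESeq2 and 4598 without HET 3. In MGE they numbered 7, and 33 with DESeq2.

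Same-numbered HET and WT samples of a tissue did not deviate together (correlations -0.23 to 0.12), nor did same-numbered samples of 2 tissues within a genotype (-0.09 to 0.10), so the numbers were not taken as pairs. With the replicate block, 0 members were called for genotype in each tissue, and 80 genes in hippocampus.

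With a pseudocount of 5, these log2 ratio differences changed sign: Cplx3 to Cplx1 (-1.10 against cortex, -1.17 against MGE, in hippocampus), Syt2 to Syt1 (-0.077, hippocampus minus MGE) and Rims2 to Rims1 (0.0080, MGE minus cortex). Leaving out a library turned the sign, in MGE minus cortex, of Rims2 to Rims1 (-0.12 to 0.11), Cplx3 to Cplx1 (-0.11 to 0.34), Doc2b to Doc2a (-0.21 to 0.022) and Unc13b to Unc13a (-0.022 to 0.24), and, in hippocampus minus cortex, of Synpr to Syp (-0.29 to 0.012); the cause was not tested. Of the member counts and ratio counts, 409 alternatives kept their direction and size and 14 did not. A member count that did not change was taken as kept, also where no member was called. Of the alternatives for the other results, such as single named genes, 2061 stayed the same, 124 moved, 35 became weaker, 11 became stronger and 15 reversed.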
